A study of Mus musculus with 2 samples.

Results

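Most of the genes described here build the secretory pathway and the vesicle traffic of the cell. All of the genes were read in mouse liver total RNA on 2 single-colour oligonucleotide arrays. They were chosen by a symbol rule, set with earlier results of these data known. The rule took Rab, Arf, Stx, Vamp or Snx followed by a digit, and Sec followed by 2 digits. It also took symbols beginning with Copa, Copb, Cope, Copg, Copz, Tmed, Ssr or Lman. This rule named 112 genes, read by 158 probe sets, out of 8251 genes read by 10833 probe sets that the platform annotation assigns to 1 gene. The samples were commercial liver RNA of the same catalogue item, untreated as far as the labels say, and the labels used here give no strain, sex, age or number of animals. The titles say liver but the source field of both samples says spleen, and the titles were used here. The labels define 1 group of 2 replicates and no contrast, so the values below are descriptions, and no test between groups was possible. Nothing in the labels says that the replicates came from separate animals, so the spread between them may be technical.

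Proteins bound for secretion enter the endoplasmic reticulum (ER) through the Sec61 channel and lose their signal peptide there. They leave the ER in vesicles coated with COPII, and vesicles coated with COPI return escaped proteins and receptors from the Golgi. Rab and Arf GTPases mark each membrane and recruit its coats and tethers, SNARE proteins such as syntaxins and VAMPs fuse the membranes, and sorting nexins shape and sort endosomes. Hepatocytes use this route at high rate, because they secrete albumin, lipoproteins and most other plasma proteins, and they carry it out without the stored, stimulus-released granules of neurons and endocrine cells.

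A gene was represented by its brightest probe set, and signals are the deposited linear intensities, given for replicate 1 and then replicate 2. A background threshold was set at the 95th percentile of 84 genes typical of brain, testis, retina and striated muscle, which fell at 479.6 on replicate 1 and 400.8 on replicate 2. A gene was called above background where it exceeded the threshold on both arrays, and a gene that did not may still be expressed. Of those 84 genes, 5 were themselves above it, namely Pvalb, Tnp1, Crybb2, Guca1a and Acta1. Brightness also depends on probe sequence, so signals are not read as transcript levels that can be compared between genes. The threshold, the group medians and the signal percentiles set genes side by side by brightness and share this limit. The number of arrays limits the precision of every value. All 5 hepatocyte markers were above background, with means from 5235 (Ttr, the thyroxine carrier) to 65213 (Alb, albumin). The 6 measured T and B lymphocyte markers were not, with means from 53.8 to 420.2, and summed signals of 1136 and 1401. Among these Cd4 (337.3 and 503.0) passed the threshold on replicate 2 alone. None of the 4 measured neuronal markers was above background either, with summed signals of 146.6 and 137.3. All 4 Kupffer cell markers, 1 of 3 endothelial markers and both red cell precursor markers were above it. In such RNA fewer cells of a type and less RNA per cell cannot be told apart.

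Secretory pathway genes were above background more often than the array as a whole, and the ER and Golgi parts more often than the endosome and exocytosis parts. Above background were 53 of the 112 genes (47.3%), against 30.9% of all named genes. Without the 7 genes that the symbols named but no traffic group held, 51 of 105 were (48.6%). Of the 49 genes of ER translocation, ER export and the Golgi, 32 were above background (65.3%), with a median signal of 775.0 and 788.5. Of the 56 endosome and exocytosis genes 19 were (33.9%), with a median signal of 290.7 and 286.6, against medians of 228.8 and 219.2 over all named genes. The top 10% of all genes by signal held 19 of the 112 (17.0%, against 10% of all named genes), and 14 of these 19 belonged to the ER and Golgi groups. With the threshold at the 99th percentile of the background genes 31 of the 112 were above it (27.7%, against 15.8% of all named genes). Among them were 3 of 11 ER translocation (27.3%), 8 of 16 ER export (50%) and 9 of 22 Golgi genes (40.9%). Of the endosome genes 8 of 39 were (20.5%), and of the exocytosis genes 1 of 17 (5.88%). These shares were not tested, since the labels give no contrast and genes are not replicates. The groups were also drawn up with earlier results of these data known.

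**Figure D1:**
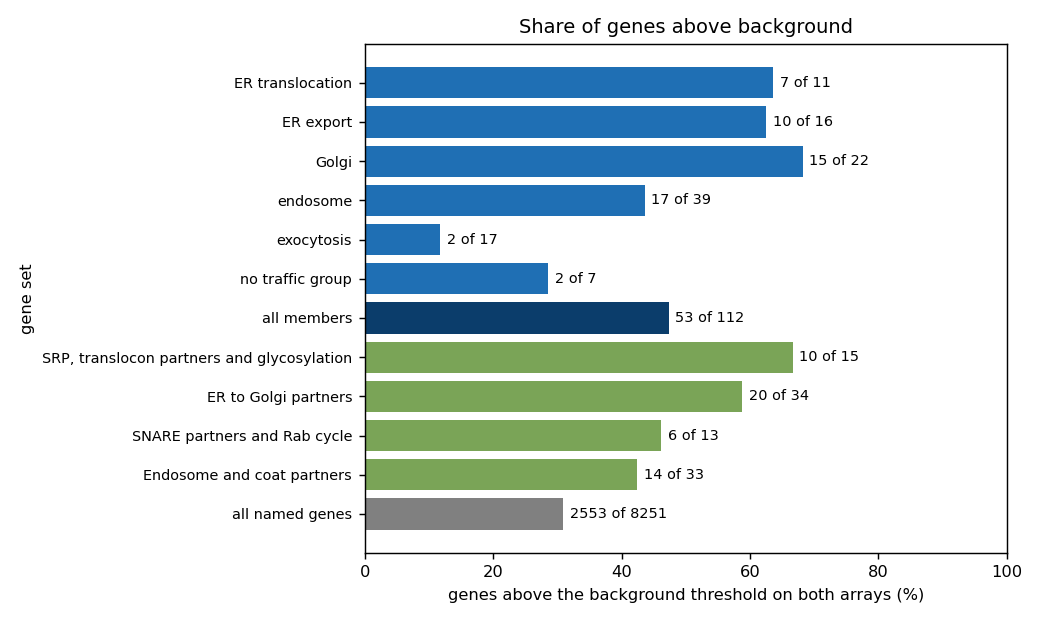
Percent of genes above the background threshold on both liver arrays (horizontal axis) for each group of genes, for all 112 genes of the symbol rule, for 4 lists of partner genes and for all named genes, with counts beside the bars. The 3 ER and Golgi bars lie between 62.5% and 68.2%, the exocytosis bar at 11.8% and the bar of all named genes at 30.9%.

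The promoters of some of these genes hold elements known from stress and lysosome control, and the sequences are shown because all genes with the first element fell in the ER export and Golgi groups. RefSeq promoter windows of build GRCm38.p6, from 250 bases before to 50 bases after an annotated start, were matched by symbol for 97 of the 112 genes. In them 6 motifs were searched on both strands. The core of the unfolded protein response element, TGACGTGG, bound by XBP1 and ATF6, stood in the windows of 5 of the 97 genes (5.15%), against 1.14% of the 6576 array genes with a window and 0.676% of all 32851 windows. All 5 were among the 42 ER and Golgi genes with a window, and 0 of the 48 endosome and exocytosis genes had it. The windows follow, 5′ to 3′ along the gene's strand, with the match in capitals, which reads CCACGTCA where the element lies on the opposite strand.
Sec23a (chr12:59011993-59012022, minus strand): ctcctccccttTGACGTGGcagaggcggca
Arf1 (chr11:59228228-59228257, minus strand): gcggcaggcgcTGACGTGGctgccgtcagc
Copb1 (chr7:114254690-114254719, minus strand): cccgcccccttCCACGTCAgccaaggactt
Copb2 (chr9:98563713-98563742, plus strand): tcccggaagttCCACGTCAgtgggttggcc
Stx5a (chr19:8741422-8741451, plus strand): tggcgcagcagCCACGTCAccgagttagga
The match lies after the annotated start in Sec23a, Arf1 and Stx5a, spans it in Copb2 and lies before it in Copb1. Of these 5 genes, Sec23a, Arf1, Copb2 and Stx5a were above background, and Copb1 was above the threshold on 1 array. Of all genes in the ER and Golgi groups 65.3% were above background.

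The core of the element bound by TFEB, the regulator of lysosome genes, TCACGTGA, stood in the windows of 6 of the 97 genes (6.19%), against 1.92% of the array genes with a window and 0.974% of all windows. It was not limited to endosome genes, since 3 of the 42 ER and Golgi genes (Sec23ip, Sec62 and Stx6) and 3 of the 48 endosome and exocytosis genes held it. The 3 endosome windows are shown for comparison, with the match in capitals, and in Rab24 the match lies just after the annotated start.
Rab5a (chr17:53479127-53479156, plus strand): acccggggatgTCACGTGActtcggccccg
Rab24 (chr13:55321961-55321990, minus strand): cggcgcccgcgTCACGTGAccgggcgtccc
Rab21 (chr10:115315604-115315633, minus strand): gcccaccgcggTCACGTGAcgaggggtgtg
Rab5a and Rab24 were above background and Rab21 was not, and neither were Sec23ip, Sec62 and Stx6. The full ER stress element, which is CCAAT, 9 bases of any kind and CCACG, and its second form, which is ATTGG, 1 base and CCACG, were found in 0 of the 97 genes, against 0.182% and 0.106% of the array genes. Their parts alone, CCACG and CCAAT, stood in 57.7% and 43.3% of the 97 genes, against 48.8% and 42.5% of the array genes. CCACG overlaps the unfolded protein response core, which contains it on the opposite strand. A window with 10 or more CpG dinucleotides was found for 89 of the 97 genes (91.8%), against 76.7% of the array genes. A match is a description of the letters in the window and not a binding site.

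Of the 11 genes of entry into the ER 7 were above background, against 30.9% of all named genes. Ssr3, the gamma subunit of the signal sequence receptor that sits beside the channel, gave 3589 and 3573. Sec61a1, the pore-forming subunit, gave 3559 and 3523, and its small partner Sec61b gave 1861 and 2300. The signal of each replicate of these 3 genes was more than 3 times the threshold. Ssr1 and Ssr2, the alpha and beta subunits of the same receptor, averaged 962.1 ± 46.2 and 616.6 ± 68.6 (SD, n = 2 arrays). The catalytic signal peptidase subunits Sec11a and Sec11c averaged 1006 ± 234.1 and 495.7 ± 57.4, and Sec11c lay close to the threshold at 536.3 and 455.1.

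Not above background in this group were Sec62 (402.5 and 359.8) and Sec63 (258.7 and 217.9), which help proteins enter after translation. Sec61a2, the second gene for the pore subunit, gave 209.0 and 189.7, on both arrays below the threshold that Sec61a1 passed. Ssr4, the delta subunit, gave 58.9 and 10.2 from a single probe set. By their brightest sets Ssr1, Ssr2 and Ssr3 were thus above background and Ssr4 was not, although the 4 proteins form one complex. A second set of Ssr1 gave 55.6 and 68.7, below the threshold on both arrays, so this contrast depends on the set read. Sec61g, the third subunit of the channel, had no probe set of its own, and its shared set is given in the closing part.

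In the ER export group, the COPII coat and its cargo receptors, 10 of 16 genes (62.5%) were above background, against 30.9% of all named genes. The median signal of the 16 was 962.1 and 1068. Lman1, the lectin that carries clotting factors V and VIII out of the ER, gave 2339 and 2431. Lman2, a related lectin of the early secretory pathway, gave 1866 and 1854. The p24 family members Tmed4 and Tmed7, which shuttle between ER and Golgi, averaged 2041 ± 144.0 and 1827 ± 113.3 (SD, n = 2 arrays). Of the COPII coat genes 6 of 7 were above background. The outer coat gene Sec31a gave 1875 and 1703, and Sec13, its partner in that layer, 1140 and 1449. The inner coat genes Sec23a and Sec23b gave 1870 and 1518, and 783.8 and 616.3, so both paralogues were above background. Sec16a, which marks ER exit sites, averaged 1429 ± 114.7, and Sec24c, which binds cargo, 716.5 ± 101.8.

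The exception in the coat was Sec24b at 18.2 and 22.2, measured by 1 probe set only, of suffix r, a class whose probes did not meet the array's usual selection rules. Of the other p24 genes Tmed3 (385.8 and 475.9) passed the threshold on replicate 2 alone, and Tmed9 (203.2 and 256.6) and Tmed8 (46.6 and 60.0) on neither array. Sec22b, a SNARE of ER to Golgi vesicles, gave 331.6 and 387.1, and Sec23ip, which binds Sec23, gave 99.1 and 54.9. Both were below the threshold on each array.

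Of the 22 Golgi genes 15 (68.2%) were above background, against 30.9% of all named genes. The median signal of the 22 was 774.2 and 749.7. Arf1, the GTPase that recruits the COPI coat, gave 9226 and 10022. Among its relatives Arf5 gave 2380.1 and 2403, Arf4 averaged 1352 ± 103.9 and Arf3 733.8 ± 58.3 (SD, n = 2 arrays), whereas Arf2 gave 133.7 and 73.0 and was not above background. The COPI coat genes were above background in 6 of 7 cases. Copb2 gave 3503 and 4275, Copz1 2476 and 2183, Copa 2255 and 2198, and Cope 1916 and 1937. Copg1 gave 888.3 and 898.2. Copz2, a second zeta subunit gene, lay just above the threshold at 488.6 and 556.2, and Copb1 passed it on replicate 1 alone (538.1 and 393.6). No COPI gene was below the threshold on both arrays.

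Rab1a, Rab2a, Rab6a and Rab18 of the Golgi group were above background, and Rab33a and Rab33b were not. Rab1a, which acts between ER and Golgi, gave 548.5 and 546.9, Rab2a 773.4 and 806.7, and Rab6a, which acts in Golgi to ER return, 635.4 and 562.1. Rab18, found on the ER and on lipid droplets, averaged 1255 ± 16.8 and the ER to Golgi syntaxin Stx5a 1097 ± 22.1. The SNARE genes Stx18 (277.8 and 265.7), Vamp4 (141.8 and 147.0) and Stx6 (17.6 and 110.7) were not above background. Rab33b gave 206.8 and 244.6, and Rab33a, described mainly in brain and lymphocytes, 16.8 and 13.3.

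**Figure D2:**
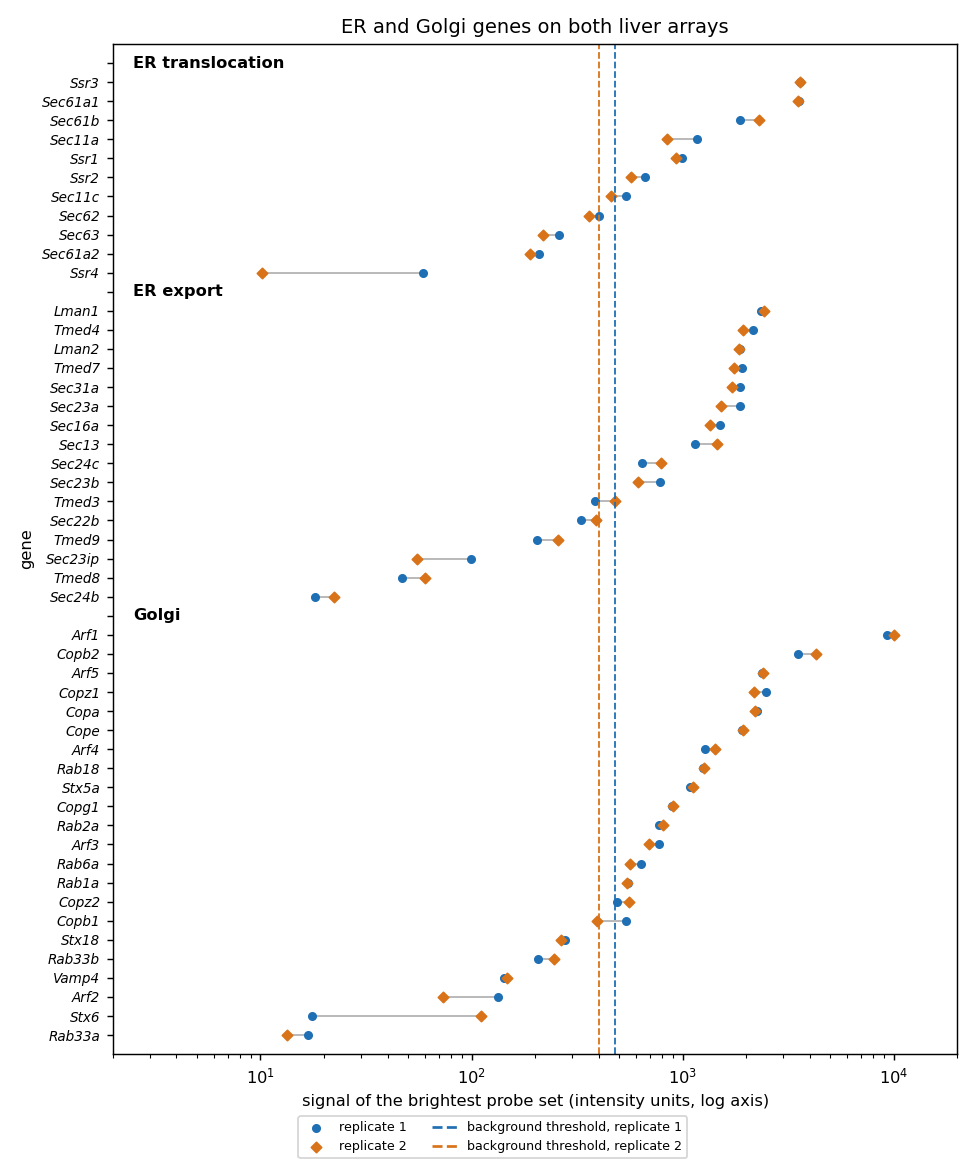
Signal of the brightest probe set of each ER translocation, ER export and Golgi gene (horizontal axis, intensity units, log axis) on replicate 1 (circles) and replicate 2 (diamonds), with dashed lines at the background thresholds of 479.6 and 400.8. Arf1 lies at 9226 and 10022, and 15 of the 49 genes lie left of the threshold on both arrays.

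Endosome genes were above background in 17 of 39 cases (43.6%), against 30.9% of all named genes. Vamp8, a SNARE of late endosomes and of regulated secretion, gave 3788 and 3976, and the sorting nexin Snx3, which works with retromer to return receptors to the Golgi, 3580 and 3988. Rab11a and Rab11b, marker GTPases of recycling endosomes, gave 1408 and 1336, and 1123 and 1193, while Rab14 gave 1754 and 2009. Rab4a and Rab4b, of fast recycling, averaged 841.6 ± 98.0 and 611.3 ± 4.88 (SD, n = 2 arrays). The late endosome GTPases Rab7 and Rab9 averaged 1119 ± 25.1 and 1354 ± 148.8. Of the early endosome GTPases Rab5a (812.8 and 644.5) and Rab5c (765.2 and 767.4) were above background, and Rab5b (202.8 and 189.8) was not.

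Of the 14 sorting nexins 5 were above background, against 30.9% of all named genes. Beside Snx3 they were Snx9, which acts with dynamin in endocytosis (1261 and 1306), and Snx2, a partner of retromer (800.2 and 712.8). Others were Snx4 (541.1 and 564.1) and Snx17, which recycles receptors of the low-density lipoprotein receptor family (549.9 and 441.4). The calls of Snx2 and Snx17 rest on sets of suffix g and r, and each held in 4 of 7 alternative settings. The unsuffixed set of Snx17 gave 59.0 and 86.0, and the brighter unsuffixed set of Snx2 203.1 and 115.5, below the threshold. The other retromer partners Snx1 and Snx5 averaged 299.9 ± 64.2 and 237.2 ± 11.3, and Snx6 passed the threshold on replicate 2 alone (442.1 and 465.1). The endosomal syntaxin Stx12 was above background at 612.0 and 616.7, and Stx7 (252.6 and 295.9) and Stx8 (253.2 and 237.1) were not. The GTPases Rab17 and Rab25, known from recycling in polarised epithelia, gave 237.8 and 195.9, and 314.6 and 242.2. Rab35, another GTPase of endocytic recycling, gave 19.1 and 29.7.

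In the exocytosis group only Rab8a (1500.0 and 1805) and Rab10 (587.7 and 629.2), GTPases of constitutive traffic to the cell surface, were above background. These were 2 of 17 (11.8%), against 30.9% of all named genes. The count was 4 of 17 on replicate 2 alone and 2 of 17 on replicate 1 alone, against 35.3% and 31.7% of all named genes. It was 6 of 17 with the threshold at the 90th percentile, against 38.3% of all named genes. Without suffixed sets, where the threshold was set anew from the remaining sets, it was 6 of 16, against 35.8%. It was 4 of 17 when all sets of a gene were averaged, against 31.9%, and 1 of 17 at the 99th percentile, against 15.8%. The share also depends on how genes were placed, since Vamp8, above background and also a SNARE of regulated secretion, was counted as an endosome gene. Rab3b and Rab3d, GTPases of regulated secretion, gave 24.3 and 22.1, and 181.5 and 72.4. The neuronal syntaxin Stx1a gave 44.0 and 55.0. Vamp1 averaged 106.1 ± 52.5 and Vamp2, which many tissues express, 330.2 ± 14.2 (SD, n = 2 arrays). Of the syntaxins of the plasma membrane Stx4a gave 364.1 and 354.5, Stx3, an apical syntaxin, 49.0 and 31.7, and Stx2 289.9 and 546.0, which was above the threshold on replicate 2 alone. Rab3ip, an activator of Rab8, was close to the threshold at 424.2 and 445.5, and Rab12 gave 401.4 and 383.0.

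Of the 7 genes that the symbols named but no traffic group held, 2 (28.6%) were above background, against 30.9% of all named genes. Sec14l2, a lipid-binding protein that also binds tocopherol, gave 2929 and 3071, and Rab5if, named for an interaction with Rab5, 4345 and 4426. The others were Rab28 (211.4 and 199.8), Rab10os (180.9 and 203.2), Sec14l1 (159.0 and 211.5), Rab23, a regulator of hedgehog signalling (57.1 and 45.3), and Rab26os (15.7 and 48.8). Rab10os and Rab26os are transcripts named for the opposite strand of a Rab gene.

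**Figure D3:**
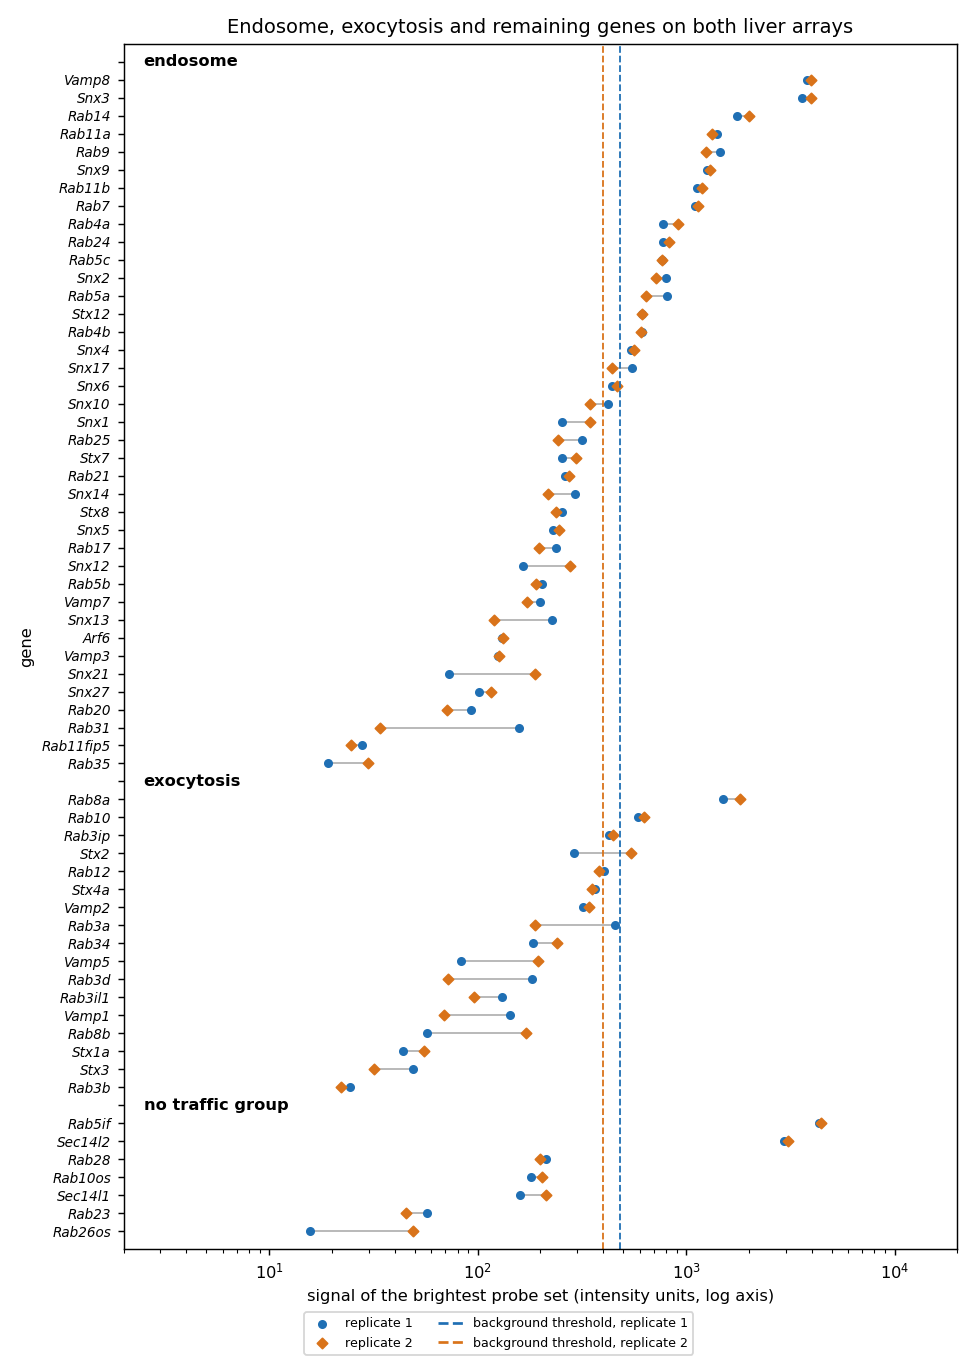
Signal of the brightest probe set of each endosome and exocytosis gene and of the 7 genes of no traffic group (horizontal axis, intensity units, log axis) on replicate 1 (circles) and replicate 2 (diamonds), with dashed lines at the background thresholds. Rab8a and Rab10 are the 2 exocytosis genes right of both lines, and Rab3a gave 454.5 and 189.0.

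Partner genes that the symbols do not cover were put in 4 lists, drawn up with earlier results of these data known. At the main threshold 66.7% and 58.8% of genes in the ER and ER to Golgi lists were above background. In the SNARE and endosome lists 46.2% and 42.4% were, against 30.9% of all named genes. Of 15 measured genes of signal recognition, translocation and glycosylation 10 were above background, with Dad1, a subunit of the oligosaccharyltransferase, at 5602 and 5692, the SRP receptor Srpr at 4841 and 4541, and the translocation factor Tram1 at 2284 and 2986. Srprb, the second receptor subunit, gave 124.9 and 93.5. Of 34 partners of ER to Golgi traffic 20 were above background, including the cargo receptor Surf4 (4704 and 6753), Mcfd2, the partner of Lman1 (3660.1 and 4262), and Kdelr1, which retrieves ER proteins (3314 and 3381). Arfgap3 gave 50.5 and 87.7 and was not above background. Of 13 SNARE partners and Rab regulators 6 were, including Rabac1, a Rab acceptor (4925 and 5474), Gdi2, which recycles Rabs through the cytosol (1633 and 2223), and the SNARE disassembly factor Napa (1059 and 853.4), while the neuronal Snap25 gave 4.1 and 6.1. Of 33 endosome and coat partners 14 were. The count was 23 with the threshold at the 90th percentile (69.7%), against 38.3% of all named genes. Without suffixed sets it was 22 (66.7%), against 35.8%. At these settings the ER to Golgi list stood at 67.6% and 62.1%, below the endosome list, so their order at the main threshold was reversed. The ER list stood at 73.3% and 71.4%, and the SNARE list at 53.8% in each. The 14 included the lysosomal membrane proteins Lamp1 (12185 and 12235) and Lamp2 (3082 and 3616) and the clathrin adaptor Ap2m1 (3170.1 and 2966). The mannose 6-phosphate receptor gene M6pr gave 31.2 and 8.7.

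Different probe sets of a gene often gave different answers. Of the 112 genes 38 had more than 1 set. In 7 of them every set was above background, in 15 none was, and in 16 some were and some were not. Among genes with at least 1 set above background such a split was found in 16 of 23 (69.6%), against 81.2% of the 828 such genes on the whole array. Lman1 was read at 2339 and 2431 by one set and at 2.6 and 5.2 by its dimmest, and Snx2 at 800.2 and 712.8 by one and at 8.7 and 4.2 by its dimmest. Rab1a gave 16.3 and 15.8 in its other set, Copz1 62.6 and 84.4, and Rab2a 36.8 and 37.7. The signals of 3503 and 4275 for Copb2 came from a set of suffix r, whereas its other set, of suffix f, gave 351.0 and 391.3. In contrast, all sets agreed in call for Ssr3, Sec61a1, Tmed7, Vamp8, Rab7, Rab10 and Sec14l2, each of them above background. Every set of Vamp8 carried suffix f, and those of Sec14l2 suffixes s and r, so neither gene was measured without suffixed sets. Of the 59 genes not above background 44 were read by a single set.

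**Figure D4:**
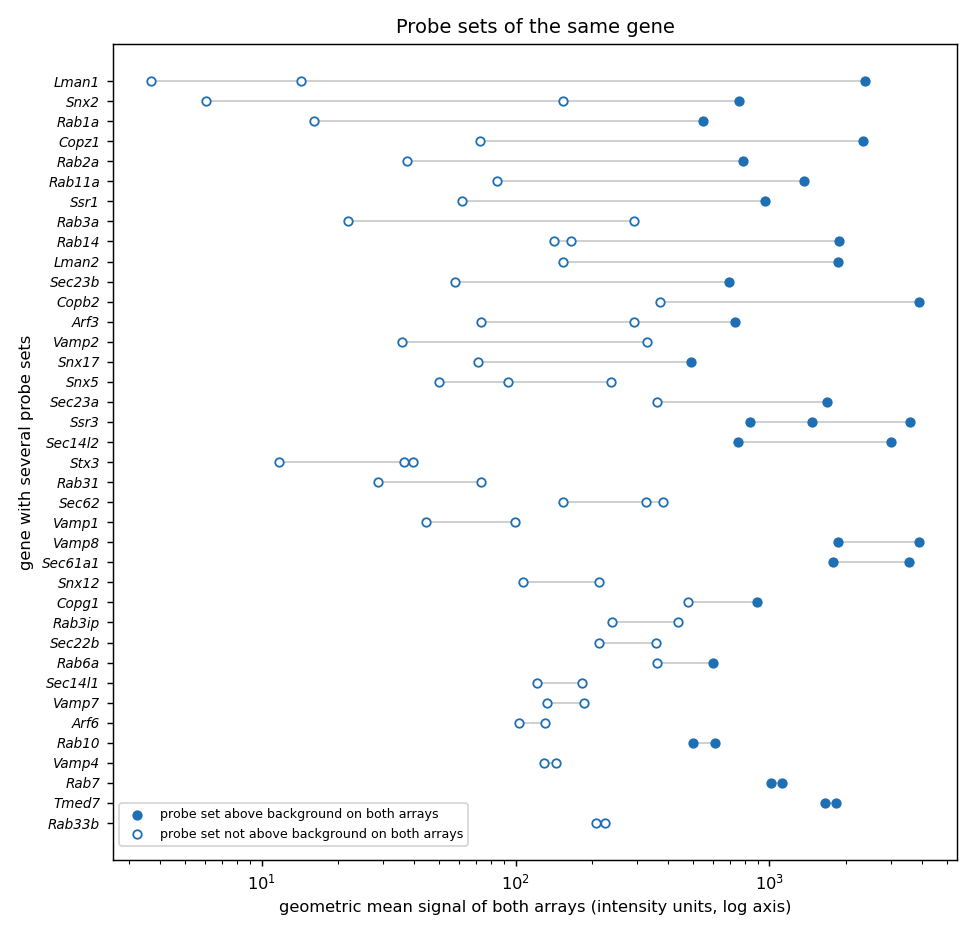
Geometric mean signal of both arrays (horizontal axis, intensity units, log axis) for every probe set of the 38 genes with more than 1 set, ordered by the ratio of the brightest to the dimmest set. Filled points were above background on both arrays and open points were not, and 16 genes carry both kinds.

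Among the 76 of them in the brighter 50% of named genes, the log2 difference of replicate 1 minus replicate 2 had a median of -0.02 and an SD of 0.27, against a median of -0.00 and an SD of 0.31 over all 4126 brighter genes. Only 1 of the 76 differed by over 2-fold, against 1.11% of all brighter genes, of which 0.703% were higher on replicate 1 and 0.412% on replicate 2. That gene was Rab3a, a GTPase of synaptic vesicles and endocrine granules, at 454.5 on replicate 1 and 189.0 on replicate 2, a ratio of 2.40. It was below the threshold on both arrays, and its other set gave 42.5 and 11.3. Of the 40 brighter ER and Golgi genes 0 differed by over 2-fold, and the greatest ratio was 1.39 (Sec11a, 1171 and 840.3). Higher on replicate 1 were 34 of the 76, against 2027 of the 4126 brighter genes. In ER translocation 8 of 9 brighter genes were, with a median log2 difference of 0.16, and in the Golgi group 6 of 18 were, with a median of -0.02. With 1 array on each side these differences have no replicate check.

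**Figure D5:**
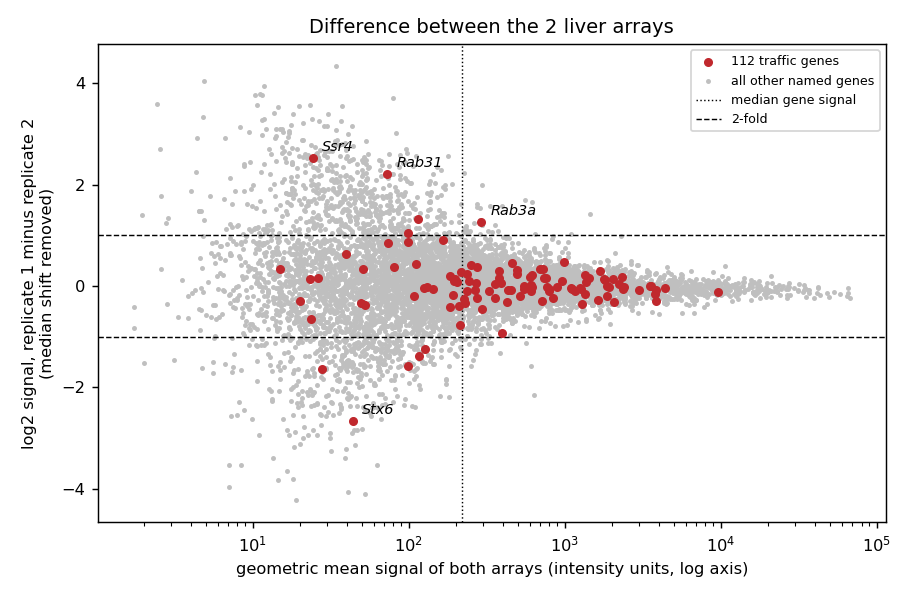
Log2 signal of replicate 1 minus replicate 2 after removal of the median shift (vertical axis) against the geometric mean signal of both arrays (horizontal axis, intensity units, log axis) for the 112 genes of the symbol rule (red) and all other named genes (grey). Dashed lines mark 2-fold and the dotted line the median gene signal, right of which Rab3a is the only red point outside the dashed lines.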

How the data were processed

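The authors deposited 1 signal intensity per probe set and array, on a linear scale, for 2 liver samples; per the labels the material was purchased total RNA. No source used here states the summary method, the scaling or detection calls, and background correction could not be repeated, which matters most for low signals. Of 12488 probe sets 66 are controls. Genes came from the platform annotation; probe sets of several genes or none stayed out. All 158 probe sets matched a RefSeq gene identifier. Only 16 values were identical between arrays. Members, groups and lists were chosen with earlier results of these data known. Of 95 background genes 84 were measured. Percentiles rank genes by mean log2 signal. Differences subtract the median log2 difference (0.0058) of the brighter 50% of probe sets. No p-value was computed. Genes were named as the top 5 and the bottom one of each group, those over 2-fold different, those with the most discordant sets, those nearest the threshold, 4 isoform families, and the 3 highest and the lowest of each partner list; further genes were named after their values were seen, and so were the promoter motifs chosen. Steps were tested on simulated data. Under each alternative the background threshold was set anew from the values of that alternative. Alternatives were other thresholds, the mean of a gene's sets, no suffixed sets, quantile normalization, no shift, log2(value + 32), other signal ranges and each array alone. Python 3.11.15, numpy 2.4.6, pandas 2.3.3 and matplotlib 3.10.9 were used.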

Additional observations from a re-analysis of the deposited data

Results flagged for a closer look

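Probe sets that the annotation assigns to several genes were left out of all counts, and 5 of them include a gene of these families. Of the 5, 4 exceeded the threshold on each array. The set shared by Sec61g, the small gamma subunit of the translocation channel, and predicted genes gave 2361 and 2541, with a mean of 2451. The set shared by Tmed10, a p24 cargo receptor, and its pseudogene gave 1905 and 1984, with a mean of 1944. Of 3 sets shared by Tmed2, another p24 gene, and the predicted gene Gm10698, one gave 3354 and 2441 (mean 2898), another gave 1263 and 1432 (mean 1348), and the last, which passed the threshold on replicate 2 alone, gave 235.4 and 571.7. The array cannot say which of the genes gave these signals.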

How the results depend on the processing

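The count of genes above background, 53 of 112, was 63 with the threshold at the 90th percentile of the background genes (38.3% of all named genes) and 31 at the 99th (15.8% of all named genes). On replicate 1 alone it was 54 (31.7% of all named genes) and on replicate 2 alone 57 (35.3% of all named genes). Their median percentile by signal, 66.4, was 62.0 when all sets of a gene were averaged, 65.8 without the sets that carry a suffix letter, 67.4 without the genes of no traffic group, and 66.1 to 66.8 on 1 array alone. The number over 2-fold different, 1, was 0 when all sets of a gene were averaged, 0 in the brightest 25% of genes and 10 over all 112 genes, where 14.0% of all named genes passed. The SD of the log2 difference, 0.27, was 0.60 over all 112. The calls of 29 genes above background and of 48 not above it were the same in every alternative that measured them, and those of 35 depended on the setting. Of 79 counts for groups and lists under an alternative, 14 moved by over 1.5 times, and the cause was not tested. The 79 include counts taken without the genes of no traffic group, which could not change for any other group or list. Depth has no meaning for arrays, and signals near the threshold limit these calls. No paired analysis was possible because the labels define 1 group.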
